A study of Homo sapiens with 12 samples.

Results

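GATA2 and 7 other transcription regulators, FOXA1, HOXB13, LMO4, GRHL2, SPDEF, ELF3 and ERG, were followed in 2 prostate cancer cell lines. The lines were transfected with an siRNA against GATA2. The members were chosen by gene symbol, with earlier results of these data known. A probe was kept where its detection p-value was under 0.05 on at least 3 of the 12 arrays. The 8 probes listed under these symbols were all kept, out of 22539 kept probes among 47323 in the deposited table, and each was detected on all 12 arrays. They cover 7 of the 8 genes, with 2 probes for LMO4 and 1 for each other gene. ERG has no probe under its symbol in the probe table used, so it was not analysed here.

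Both lines descend from LNCaP, an androgen-responsive line from a prostate cancer metastasis. LNCaP-abl cells (Abl) grew in phenol red-free RPMI medium with 10% charcoal-stripped serum, which is depleted of steroids. MDVR cells are LNCaP cells cultured for more than a year with 25 microM enzalutamide, an androgen receptor antagonist, in 10% fetal bovine serum, and they were held in 10 microM enzalutamide during experiments. A Stealth siRNA that targets GATA2 (siGATA2) or a non-targeting siRNA (siNT) was transfected at 25 nM, and RNA was collected 72 h later, which gave 4 groups of 3 arrays: Abl siNT, Abl siGATA2, MDVR siNT and MDVR siGATA2. The labels name 1 siRNA against GATA2. Line, serum and enzalutamide changed together, so their parts in any difference between Abl and MDVR cannot be told apart. The labels do not say whether replicates were separate cultures, so each p-value reflects the spread among these arrays alone, which may be technical.

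GATA2 is a zinc finger factor that binds GATA motifs, and FOXA1 is a forkhead factor that opens compact chromatin. In prostate cells both are known as pioneer factors that prepare enhancers for the androgen receptor. HOXB13 is a homeodomain factor of the prostate that acts at many of the same enhancers. LMO4 is a LIM-only protein that does not bind DNA itself and joins other regulators through LDB1. GRHL2, a grainyhead factor, maintains epithelial junction genes, and SPDEF and ELF3 are ETS factors of epithelial cells.

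The arrays of one group resembled each other (r = 0.989 to 0.992 across probes), and 40.4% to 43.3% of probes were detected per array. Markers of luminal prostate epithelium were present: 9 of 9 had a kept probe, and 7 of them, KRT8, KRT18, KRT19, EPCAM, TMPRSS2, ACP3 and FOLH1, were detected on all 12 arrays. The androgen-induced proteases KLK2 and KLK3 were detected on 3 arrays each. ACP3, a secreted phosphatase, had a mean level of 11.64 in Abl siNT, 11.51 in Abl siGATA2, 6.36 in MDVR siNT and 5.89 in MDVR siGATA2, and KRT8, a luminal keratin, had 11.14, 11.09, 9.41 and 9.46 in the same order. KLK2 had 4.50, 4.58, 6.36 and 4.71, and KLK3 had 4.55, 4.60, 5.46 and 4.70. The 3 basal markers KRT5, KRT14 and TP63 have no probe under their symbols in the table used, nor do CHGB, SYP, COL1A1, PTPRC, PECAM1 and CDH5, so they were not analysed here. Of the markers of other cell types, ENO2, VIM, ACTA2 and CD68 were detected on all 12 arrays, CHGA on 3 and COL1A2 on none. ACTA2, an actin of smooth muscle, had a mean level of 8.26 in Abl siNT, 8.44 in Abl siGATA2, 6.89 in MDVR siNT and 6.16 in MDVR siGATA2, and ENO2, a neuronal enolase, had 9.86, 9.72, 9.20 and 8.48. VWF, an endothelial marker detected on 8 arrays, had a mean normalized log2 intensity of 5.01 in Abl siNT, 8.84 in Abl siGATA2, 4.87 in MDVR siNT and 6.56 in MDVR siGATA2. VWF therefore moved with siGATA2 in both lines, and KLK2, KLK3, ACTA2 and ENO2 were lower with siGATA2 in MDVR. ACP3, KRT8, KRT18 (7.174 in Abl siNT, 6.75 in MDVR siNT), KRT19, FOLH1, ACTA2, ENO2 and VWF had lower means in MDVR than in Abl under each siRNA. Some markers rose with siGATA2 in both lines. Means of FOLH1 rose with siGATA2 from 12.12 to 12.62 in Abl and from 11.19 to 11.8 in MDVR. Those of EPCAM (12 to 12.37, 12.19 to 12.32), KRT19 (5.888 to 6.639, 5.805 to 6.065) and CD68 (8.658 to 9.191, 8.714 to 8.956) also rose. Under siNT, KLK2, KLK3, EPCAM, CD68, TMPRSS2 (9.836 in Abl, 9.873 in MDVR), VIM (8.048, 8.625) and CHGA (4.779, 5.119) were not lower in MDVR. The part of these shifts in the changes below was not tested. In bulk RNA, fewer cells of a type and less RNA per cell cannot be told apart.

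Promoter sequence from the RefSeq tables (GRCh38.p14) was searched for 5 of the members, GATA2, FOXA1, LMO4, SPDEF and ELF3. It was taken as 7 windows of 250 bases that end just before an annotated start. GRHL2 and HOXB13 were not searched, so the matches below do not cover them. The windows were searched on both strands for 4 GATA strings, which were AGATAA, its variant AGATAG, the related string TGATAA and its variant TGATAG. They were also searched for the forkhead string GTAAACA and its variant GTAAATA. The 4 windows below belong to the targeted gene, to LMO4, which fell after siGATA2 in both lines, and to SPDEF, which fell in MDVR. Each is written 5′ to 3′ on the strand of its gene, and capitals mark a forkhead match.
GATA2, chr3:128493202-128493451, minus strand: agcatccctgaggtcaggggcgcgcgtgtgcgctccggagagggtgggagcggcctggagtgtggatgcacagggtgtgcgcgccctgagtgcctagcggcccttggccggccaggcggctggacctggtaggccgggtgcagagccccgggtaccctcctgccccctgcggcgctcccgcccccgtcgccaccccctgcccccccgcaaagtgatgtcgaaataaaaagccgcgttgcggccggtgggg
LMO4, first start, chr1:87328630-87328879, plus strand: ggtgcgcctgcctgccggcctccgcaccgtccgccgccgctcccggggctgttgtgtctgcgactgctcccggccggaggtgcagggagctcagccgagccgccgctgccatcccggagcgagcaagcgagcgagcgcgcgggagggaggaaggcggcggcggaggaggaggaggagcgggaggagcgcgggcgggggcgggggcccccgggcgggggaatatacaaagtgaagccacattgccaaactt
LMO4, second start, chr1:87331494-87331743, plus strand: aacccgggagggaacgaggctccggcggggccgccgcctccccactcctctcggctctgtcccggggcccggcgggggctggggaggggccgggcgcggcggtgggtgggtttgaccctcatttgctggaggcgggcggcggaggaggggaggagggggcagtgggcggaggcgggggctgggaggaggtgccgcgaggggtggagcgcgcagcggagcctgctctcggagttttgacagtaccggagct
SPDEF, chr6:34556330-34556579, minus strand: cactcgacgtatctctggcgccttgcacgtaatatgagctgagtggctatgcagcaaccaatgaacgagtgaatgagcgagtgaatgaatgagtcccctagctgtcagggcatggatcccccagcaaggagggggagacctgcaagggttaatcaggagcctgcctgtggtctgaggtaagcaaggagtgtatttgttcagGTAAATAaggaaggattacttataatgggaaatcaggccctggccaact
None of the 7 windows held one of the GATA letter strings, which occur in 22.3% of all 35116 promoter windows of this length. The SPDEF window held GTAAATA 42 bases before the start, and this was the only forkhead match in the 7 windows, against 5.27% of all windows. The LMO4 windows were rich in G and C (74.4% and 76.0%), as were those of GATA2 (71.2% and 72.8%) and FOXA1 (67.2%), whereas SPDEF stood at 50.8% and ELF3 at 58.4%, beside a median of 58.0% over all windows. These matches describe the letters of the windows only.

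In the plots and sentences that follow, a level is the normalized log2 intensity of 1 probe, and a change is a difference of group means on that scale. A change was called where limma's Benjamini-Hochberg adjusted p, over the 22539 kept probes, was under 0.05. Levels of different probes are not compared, because probes differ in brightness.

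**Figure D1:**
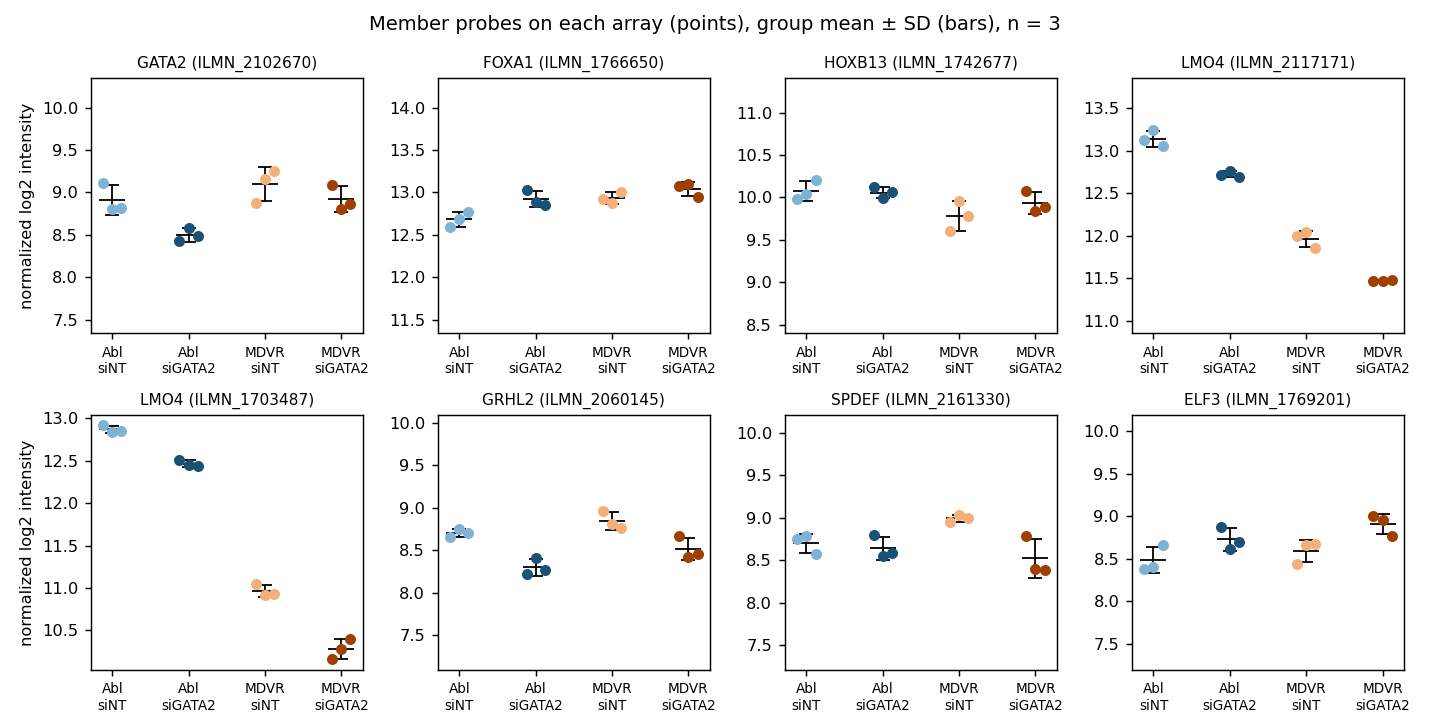
Normalized log2 intensity (vertical axes, which do not start at 0) of the 8 member probes on each of the 12 arrays, by group (horizontal axes), with the mean and SD of 3 arrays. The LMO4 probes step down through the 4 groups without overlap, while the 4 groups of HOXB13 and ELF3 overlap their neighbours.

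The targeted gene was the first member examined, since it checks the labels. In Abl the GATA2 probe ILMN_2102670 gave 9.12, 8.80 and 8.82 on the siNT arrays, against 8.43, 8.58 and 8.48 on the siGATA2 arrays. Every siGATA2 array was below every siNT array. GATA2 fell by 0.41 (SE 0.118, adjusted p = 0.0147 by limma), to 75.0% of the siNT level. Of all kept probes, 21.4% changed by more. The call rested on single arrays. Without Abl siNT replicate 1 the change was -0.31 (adjusted p = 0.0800) and without Abl siGATA2 replicate 2 it was -0.38 (adjusted p = 0.0587). Of the 27 alternatives, 3 ended the call, these 2 among them (adjusted p up to 0.117).

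In MDVR the GATA2 probe ILMN_2102670 gave 8.88, 9.16 and 9.26 on the siNT arrays, against 9.09, 8.80 and 8.86 on the siGATA2 arrays. The groups overlapped, and the change of -0.18 was not called (95% interval -0.43 to 0.06, adjusted p = 0.355). The GATA2 message stood at 88.2% of its siNT level, so the siGATA2 labels of the MDVR arrays are not borne out by this probe alone. The difference between the lines was 0.23 (interval -0.12 to 0.58, adjusted p = 0.517).

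LMO4 fell in both lines and on both of its probes. Probe ILMN_2117171 read 13.13, 13.24 and 13.05 in Abl siNT and 12.71, 12.77 and 12.70 in Abl siGATA2. In MDVR it read 11.99, 12.04 and 11.86 with siNT, then 11.46, 11.47 and 11.47 with siGATA2. In each line all siGATA2 arrays lay below all siNT arrays. The fall was 0.42 in Abl (SE 0.0707, adjusted p = 0.000196) and 0.49 in MDVR (SE 0.0707, adjusted p = 6.17e-05), which left 74.9% and 71.0% of the siNT level.

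The other LMO4 probe, ILMN_1703487, gave 12.92, 12.84 and 12.85 in Abl siNT and 12.51, 12.45 and 12.44 in Abl siGATA2. In MDVR it gave 11.05, 10.92 and 10.92 with siNT, then 10.16, 10.29 and 10.40 with siGATA2. Again no siGATA2 array reached the siNT arrays of its line. The fall was 0.40 in Abl (SE 0.0744, adjusted p = 0.00046) and 0.68 in MDVR (SE 0.0744, adjusted p = 2.58e-06), to 75.6% and 62.3% of the siNT level. In MDVR 4.30% of kept probes changed by more than this probe, and in Abl 22.3% did. The difference between the lines was -0.28 for this probe (95% interval -0.50 to -0.06, unadjusted p = 0.0154) and -0.08 for ILMN_2117171 (interval -0.28 to 0.13). Neither difference was called (adjusted p = 0.158 and 0.764).

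GRHL2, the epithelial grainyhead factor, also fell in both lines. Probe ILMN_2060145 read 8.66, 8.75 and 8.70 in Abl siNT against 8.22, 8.41 and 8.27 in Abl siGATA2. In MDVR it read 8.97, 8.81 and 8.77 against 8.66, 8.43 and 8.45. The groups did not overlap within either line. The fall was 0.41 in Abl (SE 0.102, adjusted p = 0.00642) and 0.33 in MDVR (SE 0.102, adjusted p = 0.0306), to 75.5% and 79.4% of siNT. On the authors' processed values the Abl fall of GRHL2 was 0.26 (adjusted p = 0.00597), and the MDVR call ended without any 1 of 4 MDVR arrays, siNT replicate 2 (-0.27, adjusted p = 0.137) or 3 (-0.35, adjusted p = 0.0597) or siGATA2 replicate 2 (-0.29, adjusted p = 0.116) or 3 (-0.30, adjusted p = 0.0973). In all, 9 of the 27 alternatives ended the MDVR call, cyclic loess among them (-0.30, adjusted p = 0.0553). The difference between the lines was 0.07 (interval -0.23 to 0.37, adjusted p = 0.857).

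SPDEF, an ETS factor of luminal secretory cells, fell in MDVR. Its probe ILMN_2161330 read 8.95, 9.03 and 9.00 in MDVR siNT and 8.79, 8.39 and 8.39 in MDVR siGATA2. The fall was 0.47 (SE 0.115, adjusted p = 0.00783), to 72.2% of siNT, and it passed under every alternative run. In Abl the probe read 8.75, 8.78 and 8.57 with siNT, then 8.80, 8.55 and 8.58 with siGATA2. These Abl groups overlapped, and the change was -0.06 (interval -0.30 to 0.18, adjusted p = 0.777). The difference between the lines was -0.41 (interval -0.75 to -0.07, unadjusted p = 0.0206) and was not called (adjusted p = 0.184), so SPDEF is not shown to respond differently in MDVR and Abl.

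FOXA1 moved the other way. Probe ILMN_1766650 read 12.59, 12.69 and 12.77 in Abl siNT and 13.03, 12.89 and 12.85 in Abl siGATA2, with no overlap. FOXA1 rose by 0.24 (SE 0.0736, adjusted p = 0.0230), to 118% of siNT. This is a small step, since 44.0% of kept probes changed by more. In MDVR the arrays read 12.92, 12.87 and 13.01 with siNT, then 13.08, 13.10 and 12.94 with siGATA2, and the change of 0.11 was not called (interval -0.05 to 0.26, adjusted p = 0.397). Omitting any 1 of 3 Abl arrays ended the FOXA1 call: siNT replicate 1 (0.19, adjusted p = 0.0934), siNT replicate 2 (0.24, adjusted p = 0.0525) or siGATA2 replicate 2 (0.19, adjusted p = 0.124).

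ELF3, an epithelial ETS factor, was not called in either line. Probe ILMN_1769201 read 8.38, 8.40 and 8.66 in Abl siNT and 8.88, 8.62 and 8.69 in Abl siGATA2. In MDVR it read 8.44, 8.67 and 8.67 with siNT, then 9.00, 8.95 and 8.77 with siGATA2. The Abl groups overlapped, and in MDVR all siGATA2 arrays were above all siNT arrays. The change was 0.25 in Abl (interval 0.01 to 0.48, adjusted p = 0.128) and 0.32 in MDVR (interval 0.08 to 0.55, adjusted p = 0.0646). The MDVR change of ELF3 was called under 5 of the 27 alternatives: without MDVR siGATA2 replicate 3 (0.38, adjusted p = 0.0469), with cyclic loess (0.34, adjusted p = 0.0436), on the authors' processed values (0.22, adjusted p = 0.04998), and with 1 probe per symbol or averaged probes (0.32, adjusted p = 0.0456 and 0.0400).

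HOXB13 gave no call for siGATA2. Its probe ILMN_1742677 read 9.98, 10.04 and 10.20 in Abl siNT and 10.12, 9.99 and 10.07 in Abl siGATA2. In MDVR it read 9.60, 9.96 and 9.79 with siNT, then 10.07, 9.84 and 9.89 with siGATA2. The groups overlapped in both lines, with changes of -0.02 (interval -0.22 to 0.19, adjusted p = 0.933) and 0.15 (interval -0.05 to 0.36, adjusted p = 0.358).

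Counted together, 5 of the 8 member probes were called in Abl, 1 higher and 4 lower, beside 22.1% of all kept probes in either direction, 10.7% higher and 11.4% lower. In MDVR 4 were called, none higher and 4 lower, beside 15.5% of all probes, 7.96% higher and 7.53% lower. Because LMO4 has 2 probes, these are 4 and 3 of 7 genes. The members were chosen with earlier results known, so these counts beside the shares of all probes are no test of the set. The Abl count was 3 without Abl siNT replicate 1 or without Abl siGATA2 replicate 2. The arrays of the groups did not overlap for 5 member probes in each line, against 35.9% of all probes in Abl and 30.8% in MDVR. The median change of the 8 probes was -0.23 in Abl and -0.26 in MDVR, beside 0.01 and -0.01 over all probes. For the difference between the lines none of the 8 was called, against 3.88% of all probes (2.22% higher and 1.66% lower), and 2 had an unadjusted p under 0.05, which were SPDEF and 1 LMO4 probe.

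**Figure D2:**
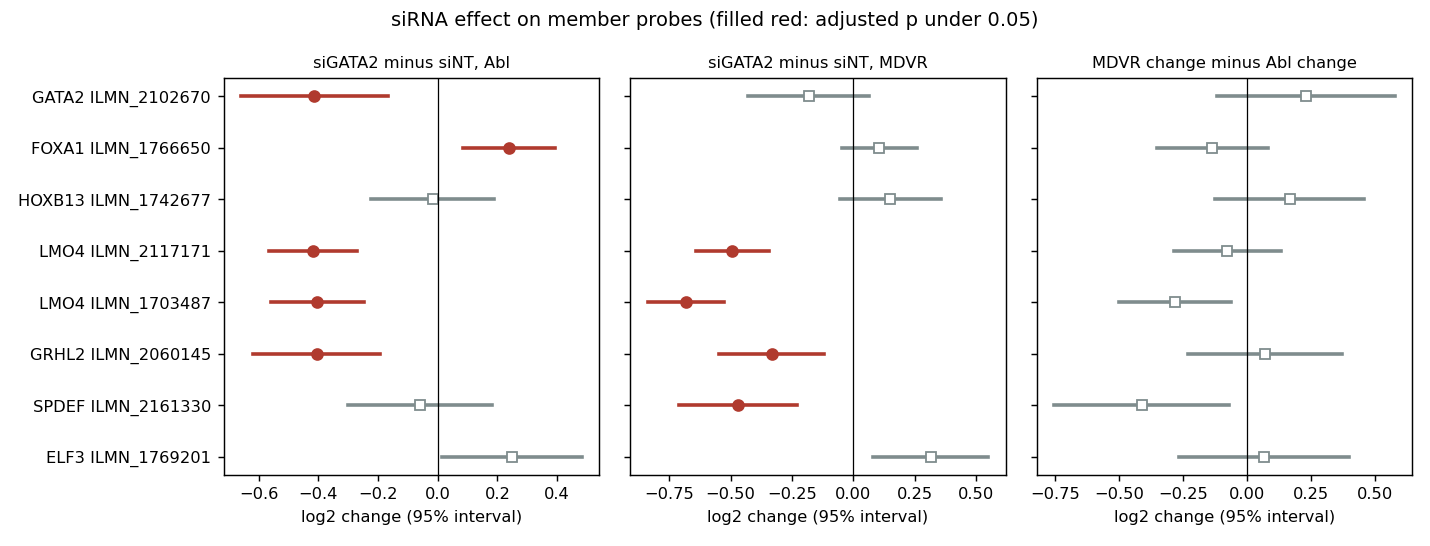
Log2 change with its 95% interval (horizontal axes, scaled separately) for the 8 member probes (vertical axis) after siGATA2 in Abl, in MDVR, and for the MDVR change minus the Abl change. Red filled points passed the limma test at adjusted p under 0.05; GATA2 passed at -0.41 in Abl and did not at -0.18 in MDVR, and no difference between lines passed.

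Between the lines, LMO4 was the member with the largest change. Under siNT it was lower in MDVR than in Abl by 1.18 on probe ILMN_2117171 (log2 change -1.18, SE 0.0707, adjusted p = 3.58e-11), which is 44.1% of the Abl level. On ILMN_1703487 the change was -1.90 (SE 0.0744, adjusted p = 4.46e-14), or 26.7% of the Abl level. Under siGATA2 the changes were -1.26 (adjusted p = 1.26e-11) and -2.18 (adjusted p = 5.27e-15), or 41.9% and 22.0%. Both probes put LMO4 lower in MDVR, but they disagree on size: ILMN_1703487 gave a change more negative by 0.72 under siNT and by 0.93 under siGATA2. Under siNT 7.34% and 2.63% of kept probes changed by more than these probes.

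GATA2 itself was not called between the lines under siNT (0.19, adjusted p = 0.225). Under siGATA2 it was higher in MDVR by 0.42 (SE 0.118, adjusted p = 0.00611). FOXA1 was higher in MDVR under siNT by 0.25 (SE 0.0736, adjusted p = 0.00904), and not called under siGATA2 (0.12, adjusted p = 0.213). HOXB13 was lower in MDVR under siNT (-0.29, SE 0.0982, adjusted p = 0.0219), and not called under siGATA2 (-0.12, adjusted p = 0.332). With median scaling the siNT change of FOXA1 was 0.44 (adjusted p = 7.6e-05) and that of HOXB13 was -0.17 (adjusted p = 0.227). HOXB13 was not called either when Abl siNT replicate 3 (-0.23, adjusted p = 0.106) or MDVR siNT replicate 2 (-0.20, adjusted p = 0.138) was omitted.

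SPDEF was called higher in MDVR under siNT (0.29, SE 0.115, adjusted p = 0.0495), just under the threshold, and the call ended without any 1 of 8 arrays (0.23 to 0.33, adjusted p = 0.0549 to 0.178). Under siGATA2 SPDEF was not called (-0.12, adjusted p = 0.435). ELF3 was not called under either siRNA (0.11 and 0.18, adjusted p = 0.474 and 0.214). GRHL2 lay higher on all MDVR arrays than on all Abl arrays under each siRNA, and was called in neither case (0.14 and 0.22, adjusted p = 0.290 and 0.0958).

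Of the 8 member probes, 5 were called between the lines under siNT, 2 higher and 3 lower in MDVR, beside 41.1% of all probes, 20.9% higher and 20.2% lower. The count was 3 without Abl siNT replicate 3 or without MDVR siNT replicate 2. Under siGATA2 3 were called, 1 higher and 2 lower, beside 45.2% of all probes, 23.8% higher and 21.5% lower. Arrays of the lines did not overlap for 6 and 4 member probes, against 48.8% and 52.7% of all probes. Median scaling of the arrays moved the median change of all probes between the lines from 0.03 to 0.12 under siNT and from 0.02 to 0.10 under siGATA2. The share of calls that were higher in MDVR went from 50.9% to 63.9% and from 52.6% to 63.6%, and small positive changes between the lines should be read relative to that shift.

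**Figure D3:**
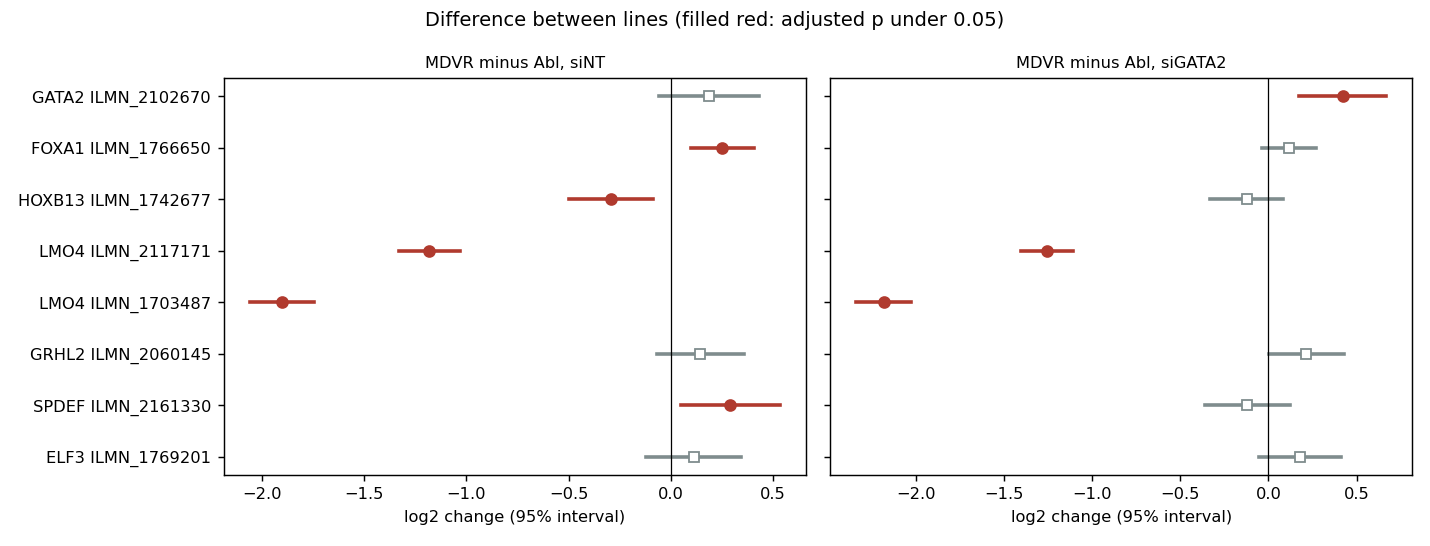
Log2 change between the lines, MDVR minus Abl, with its 95% interval (horizontal axes) for the 8 member probes (vertical axis) under siNT and under siGATA2, red where limma's adjusted p was under 0.05. The 2 LMO4 probes lie between -1.18 and -2.18, and the other probes lie within 0.42 of 0.

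Over the 4 groups, the order of levels was the same for both LMO4 probes: Abl siNT, Abl siGATA2, MDVR siNT, MDVR siGATA2 from high to low. No neighbouring groups overlapped, and the highest and lowest group means differed 3.19-fold on ILMN_2117171 and 6.00-fold on ILMN_1703487. GATA2 ran from MDVR siNT through MDVR siGATA2 and Abl siNT to Abl siGATA2, a 1.52-fold range in which only the last step was free of overlap. FOXA1 ran from MDVR siGATA2 through MDVR siNT and Abl siGATA2 to Abl siNT, a 1.28-fold range, again with only the last step free of overlap.

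GRHL2 was highest in MDVR siNT, then Abl siNT, MDVR siGATA2 and Abl siGATA2, a 1.46-fold range, and its middle neighbours overlapped. SPDEF was highest in MDVR siNT, which stood apart from Abl siNT, and Abl siNT, Abl siGATA2 and MDVR siGATA2 followed with overlap (1.38-fold in all). For HOXB13 (1.22-fold in all) and ELF3 (1.34-fold in all) every pair of neighbouring groups overlapped.

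The genes whose levels ran most like each member were found by Pearson's r over the 12 arrays, on the brightest kept probe of each gene. The 12 arrays fall into 4 groups from 2 cell lines, so r describes a shared pattern over groups and lines and carries no test. For LMO4 they were CA12, a carbonic anhydrase (r = 0.991), ATG3, an autophagy conjugation enzyme (0.990), and LBHD1 (0.989). For GRHL2 they were SGTA, a co-chaperone (0.981), WDCP (0.952) and ABCF1 (0.944). For GATA2 they were ZNF17 (0.937), PRIMPOL, a primase-polymerase (0.931), and SCML1 (0.930).

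FOXA1 ran most like TRAF3IP2, an adaptor of interleukin-17 signalling (r = 0.947), PSEN2, a presenilin (0.936), and CRAT, carnitine acetyltransferase (0.930). ELF3 ran most like CALU, a calcium-binding protein of the secretory pathway (0.941), PPP4R4 (0.928) and DRAM2 (0.915). The highest values were lower for HOXB13, with PIGS (0.868), ADSS1 (0.867) and SNRNP35 (0.856), and for SPDEF, with FAM204A (0.867), VIPAS39 (0.861) and ACOT2 (0.860).

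Relatives and partners of the members were read from 7 lists, by the brightest kept probe of each gene: 74 of 127 listed genes were measured. In Abl 10 of the 74 rose, 6 fell and 58 were not called. Their median change was 0.03, beside 13.6% of all 11933 genes higher and 14.6% lower and a median of 0.00. In MDVR 4 rose, 9 fell and 61 were not called. Their median change was -0.07, beside 10.3% higher, 9.28% lower and a median of -0.00. The share of list genes called higher in Abl was near the background. The shares lower in Abl and higher in MDVR were below it, and the share lower in MDVR was somewhat above it. None of these shares was tested. Fold sizes depended on the processing. On the authors' processed values all 84 called changes of members and named genes kept their direction and 82 their call. Of these, 46 were over 1.5 times smaller. With no background correction 35 of the 84 were over 1.5 times smaller, and 83 kept their call. What made the changes smaller on the authors' values was not tested. For the difference between the lines 1 of the 74 genes was higher, FOXM1, and 2 were lower, FOXO3 and EHF, beside 2.86% and 2.1% of all genes.

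Of 18 listed GATA factors and cofactors, 9 were measured, and GATA1, GATA3, GATA4, GATA5 and GATA6 were not among them. LDB1, LDB2, LMO2 and LYL1 were each detected on only some arrays. Among the 9 measured, 1 rose and 1 fell in each line. The single-stranded DNA-binding proteins that stabilise LDB1 complexes, the complexes LMO4 joins, supplied both. SSBP2 rose by 0.46 in Abl (adjusted p = 0.0128) and 0.39 in MDVR (adjusted p = 0.0425). SSBP4 fell by 0.45 in Abl (adjusted p = 0.00988) and 0.47 in MDVR (adjusted p = 0.0100). The SSBP2 call ended without any 1 of 2 arrays in Abl (adjusted p up to 0.0762) and of 6 in MDVR (up to 0.147), and its Abl change was 0.16 (adjusted p = 0.341) when the probes of the gene were averaged. On the authors' processed values SSBP2 in Abl was 0.17 and not called (adjusted p = 0.0642), and SSBP4 was -0.17 in Abl and -0.25 in MDVR.

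Of 11 forkhead factors, 3 rose and 3 fell in Abl, and 3 fell in MDVR. FOXM1, a driver of mitotic genes, fell by 2.04 in Abl (SE 0.15, adjusted p = 5.29e-09) and 0.76 in MDVR (SE 0.15, adjusted p = 0.00152). FOXK1, which represses autophagy genes, fell by 0.91 in Abl (adjusted p = 9.97e-05) and 0.83 in MDVR (adjusted p = 0.000452). FOXK2 fell by 0.65 in MDVR (adjusted p = 0.0289), a call that ended without any 1 of 5 arrays (adjusted p up to 0.131). FOXN2 rose by 0.51 in Abl (adjusted p = 0.00138). The authors' processed values gave smaller falls: FOXM1 was -0.71 in Abl and -0.35 in MDVR, FOXK1 was -0.46 and -0.44, and FOXK2 was -0.14 in MDVR, all still called.

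Of 9 HOXB, HOX13 and TALE genes, 2 rose in Abl and 1 in MDVR. HOXC13, a paralogue of HOXB13 from the HOXC cluster, rose by 1.14 in Abl (SE 0.120, adjusted p = 7.69e-07) and 0.59 in MDVR (SE 0.120, adjusted p = 0.00183). The difference between the lines in the change of HOXC13 was -0.55 and was not called (adjusted p = 0.0764). HOXB6 rose by 0.96 in Abl (adjusted p = 0.00173) from a level detected on 1 of 3 Abl siNT arrays, and by 0.56 (adjusted p = 0.0502) on the average of its probes. HOXB6 was 0.20 in Abl and HOXC13 0.37 in MDVR on the authors' processed values, both called. Of 2 grainyhead and CP2 factors, GRHL1 and UBP1, neither was called in either line.

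Of 16 ETS factors, 1 rose in Abl and 1 fell in MDVR. ELF1 rose by 0.30 in Abl (adjusted p = 0.0117), a call that ended without Abl siGATA2 replicate 2 or 3 (adjusted p up to 0.0556). EHF, an epithelial ETS factor close to ELF3, fell by 0.96 in MDVR (SE 0.145, adjusted p = 0.000111). In Abl the EHF change was -0.11 (adjusted p = 0.664).

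Of 12 androgen receptor coregulators, 1 rose and 1 fell in Abl and 3 fell in MDVR. KDM1A, a histone demethylase, fell by 0.41 in Abl (adjusted p = 0.00253) and 0.35 in MDVR (adjusted p = 0.0134). KMT2C, a histone methyltransferase, rose by 0.57 in Abl (adjusted p = 0.0397). NCOA4, a coactivator and ferritin receptor, fell by 0.22 in MDVR (adjusted p = 0.0288), and MED14, a Mediator subunit, fell by 0.37 (adjusted p = 0.0476). Leaving out 1 array ended the calls of KMT2C (6 arrays, adjusted p up to 0.153), NCOA4 (4 arrays, up to 0.126), MED14 (10 arrays, up to 0.197) and KDM1A in MDVR (2 arrays). With its probes averaged MED14 in MDVR was -0.11 (adjusted p = 0.618), and it was -0.14 on the authors' processed values (adjusted p = 0.115). KMT2C on the latter was 0.17 in Abl (adjusted p = 0.0141).

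Of 15 other luminal, basal, neuroendocrine and mesenchymal regulators, 2 rose and 1 fell in each line. KLF4, a Krüppel-like factor of epithelial differentiation, rose by 0.97 in Abl (SE 0.165, adjusted p = 0.000208) and 1.15 in MDVR (SE 0.165, adjusted p = 6.5e-05). NFIB, a nuclear factor I protein, rose by 0.61 in Abl (adjusted p = 0.000406), and OVOL2, a repressor of mesenchymal genes, fell by 0.41 (adjusted p = 0.00343). SOX9, a regulator of prostate epithelial growth, rose by 0.74 in MDVR (adjusted p = 0.00372). PITX1 fell by 0.25 in MDVR (adjusted p = 0.0407), and this call ended without any 1 of 6 arrays (adjusted p up to 0.141). On the authors' processed values KLF4 was 0.44 in Abl and 0.51 in MDVR, NFIB 0.40 and OVOL2 -0.17 in Abl, and SOX9 0.20 in MDVR, all still called.

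**Figure D4:**
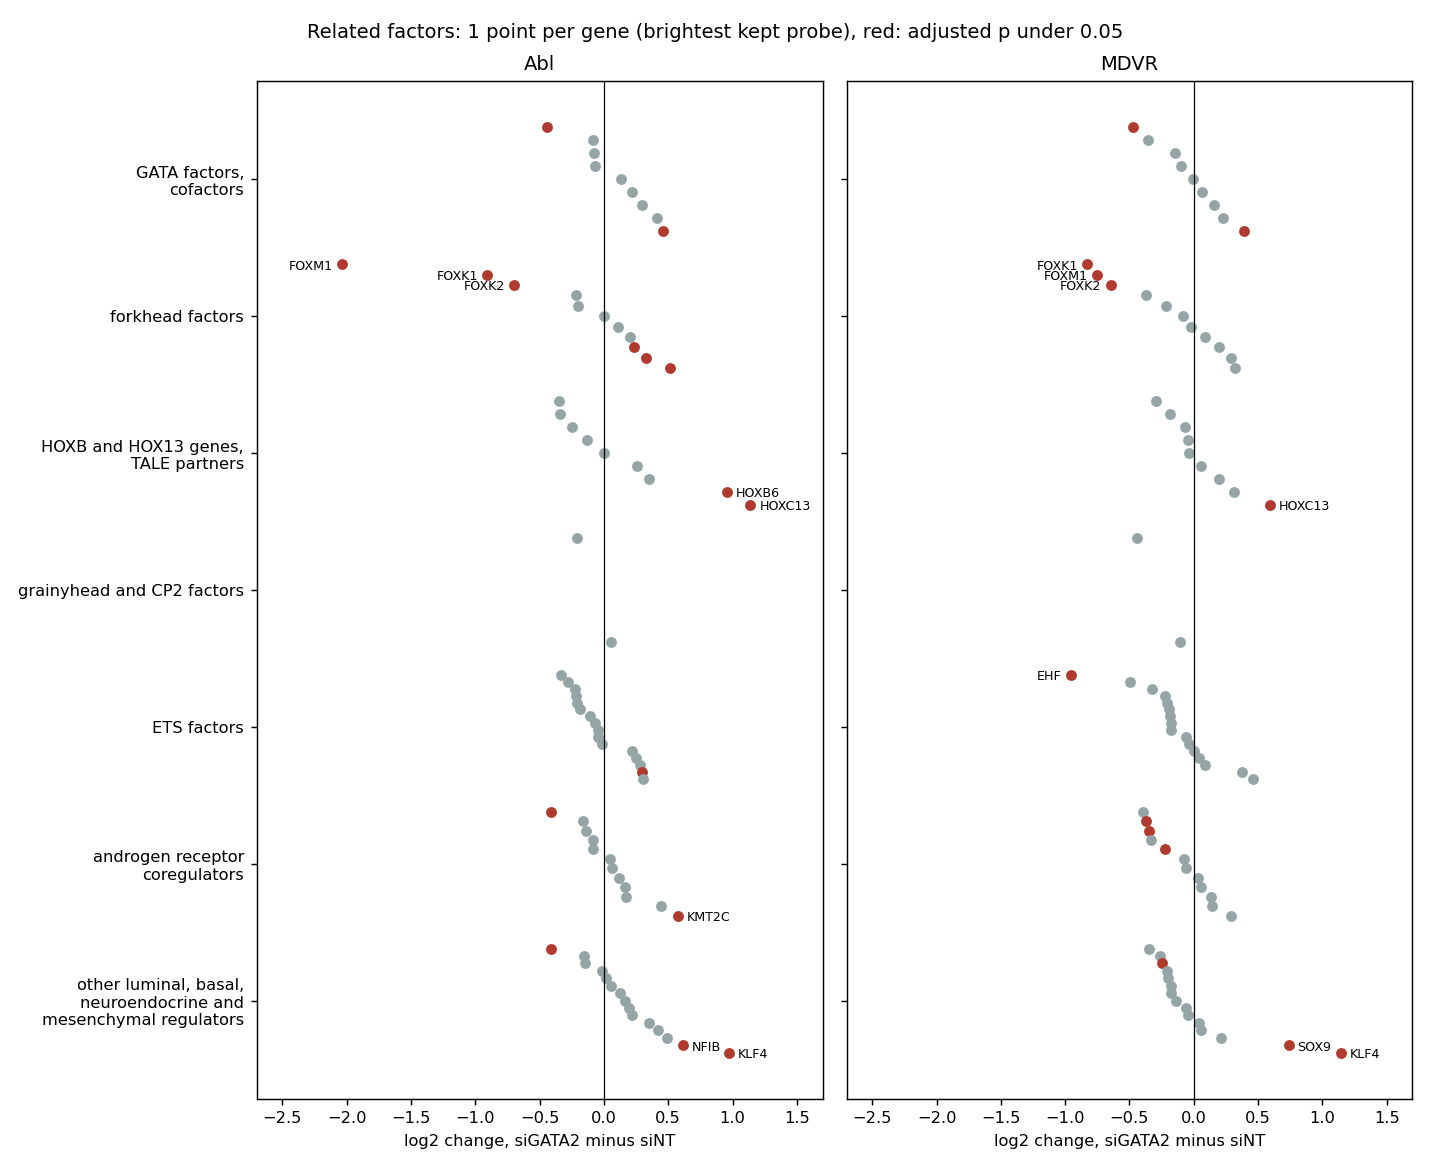
Log2 change after siGATA2 (horizontal axes) in Abl and in MDVR for 74 measured relatives and partners of the members, 1 point per gene, by list (vertical axis; height within a list only separates the points), red where limma's adjusted p was under 0.05. Of the 74 points, 58 are grey in Abl and 61 in MDVR. Of the 11 forkhead factors, 5 are grey in Abl and 8 in MDVR. Of all genes, 13.6% were called higher and 14.6% lower in Abl, and 10.3% and 9.28% in MDVR. FOXM1 at -2.04 lies farthest out in Abl.

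Between the lines, 20 of the 74 genes were higher and 17 lower in MDVR under siNT (24.4% and 24.5% of all genes), and 15 were higher and 24 lower under siGATA2 (28.3% and 25.4%). The median change was -0.06 and -0.12, beside 0.02 and 0.03 over all genes. SSBP2 was higher in MDVR under siNT by 2.27 (SE 0.128, adjusted p = 1.35e-11) and SSBP4 by 0.86 (adjusted p = 7.12e-06), whereas LMO4 was lower. OVOL2 was higher by 2.36 (SE 0.0953, adjusted p = 7.05e-14), FOXO1 by 1.80 (adjusted p = 2.12e-07, detected on 1 of 3 Abl siNT arrays), HOXB5 by 1.18 (adjusted p = 4.51e-05) and KDM1A by 1.04 (adjusted p = 1.37e-08). On the authors' processed values these siNT changes were 1.18 for SSBP2, 0.43 for SSBP4, 1.57 for OVOL2, 0.45 for FOXO1 and 0.28 for HOXB5, all still called.

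Among the genes lower in MDVR, ELF5, an ETS factor of secretory epithelium, was detected on the 3 Abl siNT arrays (mean level 10.04) and on no MDVR array. It was at least 31.4-fold lower under siNT (adjusted p = 1.78e-16) and at least 26-fold lower under siGATA2 (adjusted p = 2.27e-16), where the floor of an array is its lowest detected signal, or the ELF5 signal where that is higher. Both bounds depend on the processing. The ELF5 change was -2.52 and -2.32 on the authors' processed values and -3.11 and -2.92 with no background correction. The chromatin remodeller SMARCA2 (-1.48, adjusted p = 9.45e-12) and MED14 (-1.27, adjusted p = 5.43e-08) were lower under siNT. GRHL1, a paralogue of GRHL2, was lower by 0.57 (log2 change -0.57, adjusted p = 0.0148) under siNT and by 0.80 (-0.80, adjusted p = 0.000971) under siGATA2, and the siNT call ended without Abl siNT replicate 2 or MDVR siNT replicate 4 (adjusted p up to 0.0885). HOXC13 was lower under siNT (-0.56, adjusted p = 0.000771) and under siGATA2 (-1.11, adjusted p = 2.17e-07). MED14 was -0.68 under siNT, GRHL1 -0.17 and -0.20, and HOXC13 -0.35 under siNT on the authors' processed values, all still called.

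**Figure D5:**
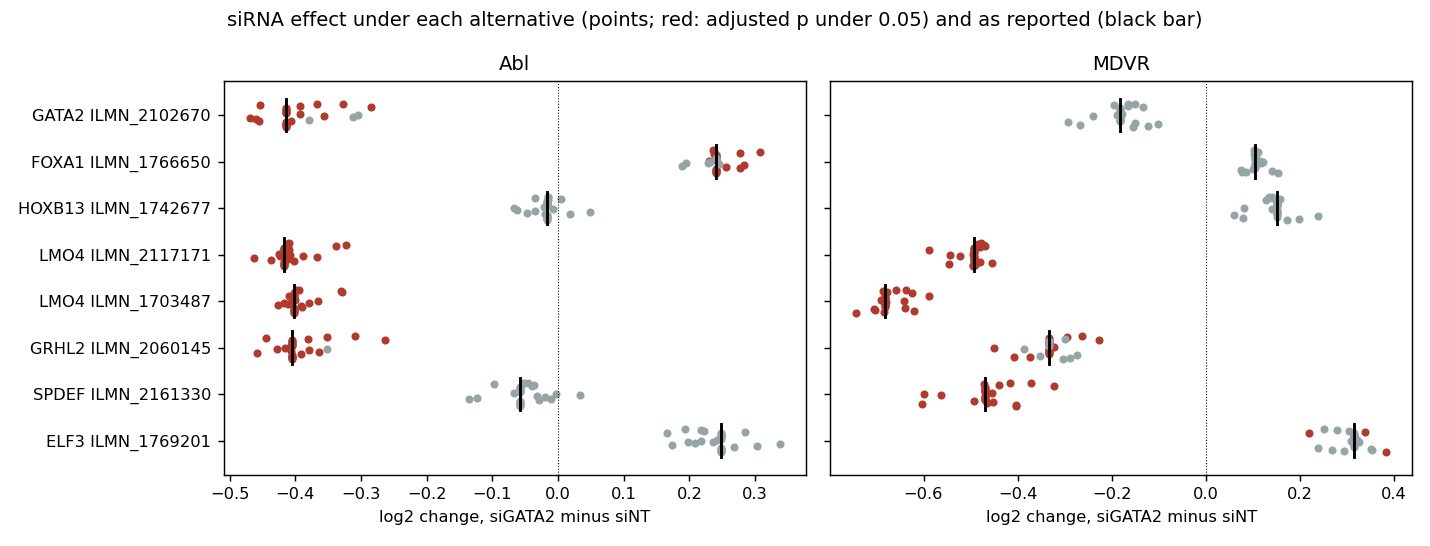
Log2 change of the member probes after siGATA2 (horizontal axes) under the reported processing and each of 27 alternatives, by probe (vertical axis) in Abl and MDVR, red where adjusted p was under 0.05. All points of both LMO4 probes are red, and those of GATA2 in Abl span -0.47 to -0.29 with some not called.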

How the data were processed

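RNA from 12 samples was hybridised to Illumina BeadChip arrays, 1 per sample and 3 per group. The deposited non-normalized table holds, for each probe and array, an intensity on a linear scale and a detection p-value. Steps in that p-value imply 770 negative control probes. Processed log2 values of 23043 probes, also from the authors, were made with lumi per the submitters' processing notes, with no version or settings stated there.

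Intensities were background corrected and quantile normalized with neqc (limma 3.58.1, R 4.3.3, offset 16), which inferred the negative controls from the detection column. A probe was kept if that p was below 0.05 on 3 or more arrays. The 4 group means were estimated from the 12 arrays (8 residual degrees of freedom) with eBayes and a trend, p-values were adjusted by Benjamini-Hochberg over 22539 probes, and 5 comparisons were made. Of the kept probes, 15867 have a single symbol in the probe table used, which covers 11933 genes. The number of arrays limits the precision: the median standard error of a log2 change was 0.17 within a line. The fit was tested on simulated data.

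The rule for naming took each member's probes, up to 3 called genes with the smallest adjusted p per list and comparison, and the 3 genes most like each member. For the comparisons between the lines, the text gives only some of the list genes so picked. The line differences of PBX2, ETS2 and PITX1 are among those left out. A few genes outside that rule, FOXO3 and EHF in Abl among them, are given a value because a difference between the lines turns on it. The members and lists were chosen with earlier results of these data known. Alternatives were median scaling, cyclic loess, normexp (offset 50) or no correction of the background, processed values from the authors, other filters, probe combinations and spread estimates, array weights, replicate blocks and leaving out each array.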

Additional observations from a re-analysis of the deposited data

Results flagged for a closer look

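Among the members and the named genes of the lists, the siGATA2 change differed between MDVR and Abl by the limma test of the difference itself for 3 genes, none of them a member. This is 1 gene higher and 2 lower of the 74 list genes measured, beside 2.86% and 2.10% of all genes. FOXM1, a driver of mitotic genes, had a mean level of 7.74 in Abl siNT, 5.70 in Abl siGATA2, 7.82 in MDVR siNT and 7.06 in MDVR siGATA2. Its fall was smaller in MDVR, with a difference of 1.28 (SE 0.212, adjusted p = 0.00105). FOXO3, a forkhead factor of stress and starvation responses, rose by 0.33 in Abl (adjusted p = 0.00576), and its change in MDVR was -0.21 (adjusted p = 0.0836). The FOXO3 difference was -0.54 (SE 0.115, adjusted p = 0.00843). EHF, the epithelial ETS factor, had a difference of -0.85 (SE 0.205, adjusted p = 0.0218). The EHF call ended without any 1 of 4 arrays (-0.76 to -0.69, adjusted p = 0.0605 to 0.0704), namely Abl siNT replicate 2, Abl siGATA2 replicate 3, MDVR siNT replicate 4 and MDVR siGATA2 replicate 3. With no trend in the spread the FOXO3 and EHF differences were not called (adjusted p = 0.0735 and 0.0944). With a replicate block across lines none of the 3 was called (FOXM1 1.05, adjusted p = 0.0646, FOXO3 -0.57, adjusted p = 0.0889, EHF -0.86, adjusted p = 0.133), nor was FOXO3 with a block within each line (adjusted p = 0.0556). EHF was not called with median scaling (-0.81, adjusted p = 0.0531). On the authors' processed values the FOXM1 difference was 0.36 (adjusted p = 0.0152) and with no background correction it was 0.53 (adjusted p = 0.00776). The mean level of VWF, the endothelial marker, rose between the siRNAs by more in Abl (5.01 to 8.84) than in MDVR (4.87 to 6.56), and its part in these differences was not tested.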

How the results depend on the processing

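Both LMO4 probes in the 4 comparisons within a line or between lines, and SPDEF in MDVR, kept direction and call under each of the 27 alternatives that gave a value. GATA2, FOXA1 and GRHL2 after siGATA2 kept direction, and their calls ended under some settings. Of the 27 alternatives, 3 ended the call of GATA2 in Abl and 6 that of FOXA1 in Abl. The GRHL2 call ended under 1 in Abl and 9 in MDVR. Between the lines under siNT, 12 of 26 alternatives ended the call of SPDEF, 5 that of HOXB13 and 1 that of FOXA1. Member probes called between the lines under siGATA2 numbered 6 with median scaling, against 3 reported, and those under siNT numbered 2 with eBayes without a trend, against 5. Using 1 probe per gene symbol or the average of a symbol's probes, which tests fewer features, gave 6095 and 6077 features called between the lines under siNT (9255 reported) and 6622 and 6564 under siGATA2 (10195 reported). Leaving out 1 array gave 3 to 5 member probes called in Abl, 3 to 4 in MDVR, 0 for the difference, 3 to 5 between the lines under siNT and 3 under siGATA2. Changes that reversed were never called. With median scaling the change between the lines under siGATA2 was 0.0044 for HOXB13 and 0.043 for SPDEF. HOXB13 in Abl was 0.0046 with cyclic loess, 0.048 without Abl siNT replicate 3 and 0.018 without Abl siGATA2 replicate 3, within a leave-one-out range of -0.063 to 0.048. The difference between the lines was -0.0033 for GRHL2 without MDVR siGATA2 replicate 1 (range to 0.131), and for ELF3 it was -0.022 without Abl siNT replicate 3 and -0.0087 without MDVR siNT replicate 2 (range to 0.142). For the reversals and for the calls that changed on scaling or trend, the cause was not tested. The replicate numbers overlap only in part between the siRNAs of a line, so the reported fit did not take them to pair samples. Same-numbered arrays deviated together only weakly (r = 0.0040 to 0.112). With 2 pairs a line this cannot exclude pairing. Either replicate block, within each line or across lines, called 3 member probes in Abl, against 5, and gave a GRHL2 difference of -0.034. The block across lines called 300 probes for the difference, against 875, and gave SPDEF in Abl 0.034. The block within each line gives no value for the line comparisons, and a fit on only the compared groups gives none for the difference. Levels close to background, such as those of HOXB6 and FOXO1, limit how closely a fold change can be read.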
